A study of Homo sapiens with 12 samples.

Results

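The genes described here are 34 genes of glycolysis and of the response to low oxygen, read in HK-2 cells exposed to CdCl. They were listed by symbol from their known roles, with earlier results of these data known, so the choice was not blind to the data. Of the 34, 32 had a probe set annotated to that symbol alone and 31 passed the filter on low signal, among 10683 genes tested in all. SLC16A1 and SLC16A3, the lactate transporters of the list, were not analysed here, because no probe set carried either symbol alone. ALDOC, an aldolase, read between 2.22 and 2.29 on the log2 scale on all 12 arrays and was left out of the tests.

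HK-2 is an immortalised human line derived from renal proximal tubular epithelium. There were 4 groups of 3 biological replicates, with 1 Affymetrix array each: cells treated with CdCl for 12 h, cells given the control vehicle for 12 h, and the same pair of conditions at 48 h. All groups were grown in a medium holding 5 mM glucose, with insulin, transferrin, selenite, hydrocortisone and epidermal growth factor added. The labels used here state no dose. All 4 groups come from the same line, and the labels do not say whether the replicates were separate passages, so the p-values measure the spread between these cultures.

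Glycolysis breaks glucose down to pyruvate, which is either reduced to lactate or enters mitochondria for oxidation. Cells short of oxygen stabilise the transcription factor HIF1A, because the prolyl hydroxylases that mark it for destruction (EGLN1, EGLN3) need oxygen, and the factor then raises the transcription of glucose transporters, glycolytic enzymes, pyruvate dehydrogenase kinases and secreted peptides such as VEGFA and ADM. Proximal tubule cells in the kidney rely mainly on mitochondrial oxidation, and cultured lines use more glycolysis.

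HIF1A with its partner ARNT is known to bind DNA at a core of ACGTG or GCGTG. RefSeq promoter windows, running from 250 bases before to 50 bases after each annotated start on GRCh38.p14, were available for 28 of the 34 genes. Those of SLC16A1, VEGFA, PFKFB2, NDRG1, SLC2A3 and BNIP3L were not used here. The windows were searched on both strands. The windows of the 5 genes with the largest measured rise that had one are printed below, together with the window holding the most ACGTG matches of any member, that of LDHA, whose change at 12 h was 0.17. Where a gene has 2 windows, the one with more matches is shown. Each reads 5′ to 3′ on the gene's strand, and capitals mark ACGTG or GCGTG, or their reverse complements CACGT and CACGC, with overlapping matches run together as CACGTG. The windows lie at chr11:10304823-10305122 on the plus strand for ADM, chr1:42958819-42959118 on the minus strand for SLC2A1, chr2:74834920-74835219 on the plus strand for HK2, chr2:172555840-172556139 on the plus strand for PDK1, chr3:48556754-48557053 on the minus strand for PFKFB4 and chr11:18394313-18394612 on the plus strand for LDHA.
ADM: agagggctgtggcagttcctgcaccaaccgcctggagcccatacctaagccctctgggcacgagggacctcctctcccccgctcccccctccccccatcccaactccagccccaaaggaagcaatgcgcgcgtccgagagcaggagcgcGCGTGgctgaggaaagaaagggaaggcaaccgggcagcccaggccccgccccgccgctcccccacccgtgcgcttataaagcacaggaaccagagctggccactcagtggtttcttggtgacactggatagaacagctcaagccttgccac
SLC2A1: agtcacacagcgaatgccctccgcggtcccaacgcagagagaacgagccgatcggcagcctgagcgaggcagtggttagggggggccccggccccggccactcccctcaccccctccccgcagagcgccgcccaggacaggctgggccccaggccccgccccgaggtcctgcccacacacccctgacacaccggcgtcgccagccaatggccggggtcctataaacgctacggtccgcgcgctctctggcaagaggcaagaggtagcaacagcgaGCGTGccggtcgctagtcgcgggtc
HK2: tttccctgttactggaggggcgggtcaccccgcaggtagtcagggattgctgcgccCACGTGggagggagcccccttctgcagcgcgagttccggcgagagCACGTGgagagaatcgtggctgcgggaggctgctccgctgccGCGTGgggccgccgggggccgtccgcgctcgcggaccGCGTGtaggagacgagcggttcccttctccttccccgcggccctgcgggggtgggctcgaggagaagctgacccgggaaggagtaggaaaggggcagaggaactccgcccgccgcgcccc
PDK1: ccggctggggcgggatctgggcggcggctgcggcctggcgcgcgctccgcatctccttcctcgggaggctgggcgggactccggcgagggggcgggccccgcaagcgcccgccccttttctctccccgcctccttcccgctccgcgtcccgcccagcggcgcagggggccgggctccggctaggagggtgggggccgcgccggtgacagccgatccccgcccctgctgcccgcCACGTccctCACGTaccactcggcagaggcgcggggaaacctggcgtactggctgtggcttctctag
PFKFB4: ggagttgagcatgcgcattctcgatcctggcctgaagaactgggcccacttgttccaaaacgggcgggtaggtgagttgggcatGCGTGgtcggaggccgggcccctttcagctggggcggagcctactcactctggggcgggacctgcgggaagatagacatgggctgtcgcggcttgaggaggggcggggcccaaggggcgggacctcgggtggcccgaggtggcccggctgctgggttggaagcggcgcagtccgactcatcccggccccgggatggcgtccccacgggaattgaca
LDHA: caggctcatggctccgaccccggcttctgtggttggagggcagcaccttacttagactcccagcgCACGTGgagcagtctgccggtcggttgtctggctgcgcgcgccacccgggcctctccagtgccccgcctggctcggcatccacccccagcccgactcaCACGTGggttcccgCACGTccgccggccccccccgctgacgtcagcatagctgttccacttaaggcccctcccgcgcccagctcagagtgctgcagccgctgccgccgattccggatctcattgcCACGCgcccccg

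The HK2 window held 4 ACGTG matches, in 2 palindromes that begin 194 and 149 bases before the start, and 2 GCGTG matches. PDK1 had 2 ACGTG matches, which begin 17 and 8 bases before its start. ADM had 1 GCGTG match 101 bases before the start, PFKFB4 had 1 at 166 bases before, and SLC2A1 had 1 beginning at base 26 after the start. LDHA had 5 ACGTG matches, the nearest beginning 73 bases before its start. Over the 28 genes, 17 (60.7%) had ACGTG in at least 1 window, against 24.9% of 27305 genes in the same table. Counted per window, the shares were 38.2% of 55 windows and 21.4% of 35116 windows. The members' windows were richer in G and C, with a median of 68.7% against 58.7% over all windows. Among the members, 41.4% of the 29 windows of genes that rose at 12 h held ACGTG, and so did 35.0% of the 20 windows of tested genes that did not rise, 7 of which belong to PFKM. Of the 29, 7 belong to HK1, and none of those held ACGTG. Counted per gene, the shares were 11 of 16 (68.8%) for genes that rose and 4 of 10 (40.0%) for those that did not. GCGTG stood in 41.8% of the members' windows and in 36.5% of all windows. With either core counted, the shares per gene were 15 of 16 (93.8%) for genes that rose and 9 of 10 (90.0%) for the others. Over the 28 genes that share was 92.9%, against 52.4% of all genes. Counted per window, either core stood in 65.5% of the members' windows and in 48.4% of all windows. CACGTG, counted within the ACGTG matches, stood in 10.9% of the members' windows and in 7.26% of all windows. These matches describe the letters only.

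The values are log2 signals per probe set, and the brightest probe set stands for each gene. Changes are CdCl minus control in log2 units ± SE of the limma fit, and a call is an adjusted p under 0.05 over the 10683 genes. A signal under 4 was taken as low, and where all 3 arrays of a group lay there the fold is given as a lower bound. Correlations between replicate arrays were 0.997 to 0.998, and arrays of different groups correlated at 0.973 to 0.989. Proximal tubule markers were measured unevenly: PAX8, SLC4A4, CDH6 and DPP4 were above the filter, whereas LRP2, CUBN, AQP1, ANPEP, GGT1, PAX2, SLC34A1, SLC22A6, SLC22A8 and SLC5A2 lay under it. Keratins and EPCAM were present, all 4 endothelial and all 3 leukocyte markers lay under the filter, and of 4 mesenchymal markers DCN and COL1A1 were present. Of the distal tubule and collecting duct markers, AQP2 passed the filter at a low signal of 4.09 to 4.56. SLC12A1, SLC12A3 and CALB1 lay under it, and UMOD had no probe set annotated to it alone. AQP2 did not pass the test at either time. At 12 h the changes of DCN (0.06) and COL1A1 (0.03) did not pass the test, and at 48 h DCN was higher in CdCl cells by 0.37. Of the 6 epithelial markers, KRT8 (-0.59), CDH1 (-0.38) and KRT19 (-0.20) were lower at 12 h and 3 did not pass; at 48 h KRT18 was lower (-0.21), CDH1 was higher (0.41) and 4 did not pass. Of the 4 tested tubule markers, CDH6 (-0.55) was lower and DPP4 (0.64) higher at 12 h, and at 48 h SLC4A4 (-3.16) and CDH6 (-2.24) were lower and PAX8 (0.32) and DPP4 (0.63) higher. The part of these marker changes in the results was not tested.

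At 12 h of CdCl, 20 of the 31 tested genes rose (PFKFB4, which passed the filter only through the CdCl arrays, included), 2 fell and 9 did not pass the test. Over all genes tested, 16.7% rose and 39.7% fell. The median change of the 31 genes was 0.50, against -0.16 over all genes, a gap of 0.66. All 3 CdCl arrays lay above all 3 control arrays for 22 of the 31 (19.8% of all genes) and below them for 5 (46.6%). Rises were found in the glucose transporters SLC2A1 and SLC2A3, the hexokinases HK1 and HK2, PFKFB3, PFKFB4, PDK1, PDK3 and all 6 hypoxia targets outside metabolism. PFKM and PFKFB2 fell, and 4 of the 7 tested enzymes of the later steps did not pass.

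**Figure D1:**
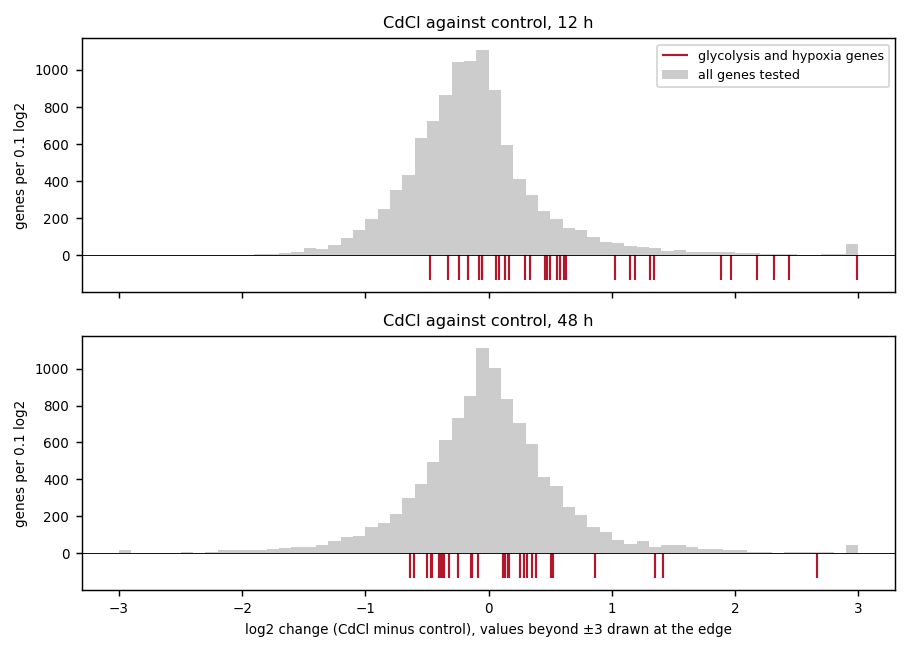
Distribution of the log2 change (CdCl minus control, x axis) over the 10683 genes tested (grey, genes per 0.1 log2) with the 31 tested glycolysis and hypoxia genes as red ticks, at 12 h (top) and 48 h (bottom). The ticks have a median of 0.50 at 12 h and 0.12 at 48 h, against -0.16 and -0.02 over all genes.

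Measures of the arrays themselves also differed at 12 h. Poly-A spike-ins averaged 6.51 ± 0.03 on the CdCl arrays and 6.09 ± 0.11 on the control arrays (SD, n = 3 each; exact permutation test, two-sided, p = 0.1, the smallest that 3 arrays against 3 can give). The median signal of the tested genes was 7.74 ± 0.04 in CdCl cells and 7.89 ± 0.02 in control cells (exact p = 0.1). The 3′ minus 5′ signal of the GAPDH control probe sets, a measure of RNA integrity, was -0.02 ± 0.03 in CdCl cells and 0.13 ± 0.09 in control cells, without overlap (exact p = 0.1), and that of actin was 1.74 ± 0.05 in CdCl cells and 1.90 ± 0.20 in control cells (exact p = 0.3). The part of these measures in the changes was not tested. When every array was centred on its median, the median change of all genes became -0.01, lower calls made up 52.1% of all calls in place of 70.4%, and the median of the 31 genes became 0.65. Centring kept all 20 rises and added ENO1 and TPI1, whose changes are 0.09 and 0.14 without it.

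**Figure D2:**
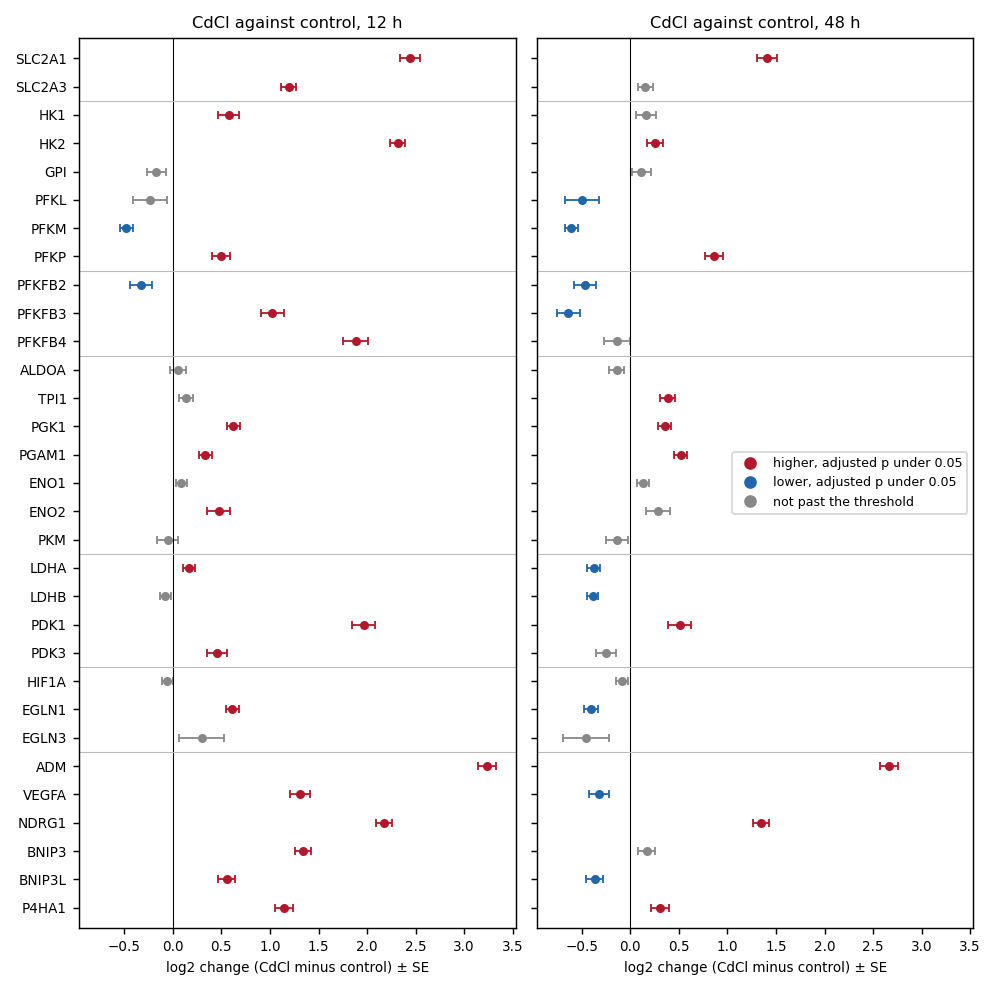
Log2 change (CdCl minus control, points) with its SE (bars) for the 31 tested genes at 12 h (left) and 48 h (right), grouped by role from glucose uptake at the top to hypoxia targets at the bottom. The 20 rises at 12 h reach 3.23 for ADM, and at 48 h 10 genes were higher and 9 lower.

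Glucose transporters rose at 12 h. SLC2A1, which encodes the widely expressed transporter GLUT1, read 9.30, 9.47 and 9.57 in CdCl cells and 7.18, 6.99 and 6.85 in control cells. The groups lay far apart, and the rise was 2.44 ± 0.10 (5.42-fold, adjusted p = 8.14e-09). SLC2A3, which encodes the high-affinity neuronal-type transporter GLUT3, read 9.02, 9.11 and 8.91 in CdCl cells and 7.82, 7.87 and 7.77 in control cells. Its rise of 1.19 ± 0.08 (2.28-fold, adjusted p = 2.77e-07) was again larger than the spread of either group. After 48 h, SLC2A1 remained higher in CdCl cells, with 8.50, 8.50 and 8.49 against 7.11, 6.91 and 7.22 (1.41 ± 0.10, 2.66-fold, adjusted p = 5.52e-07). SLC2A3 read 8.19, 8.13 and 8.17 in CdCl cells and 7.95, 8.14 and 7.93 in control cells at 48 h, and these overlapping groups did not pass the test (0.16 ± 0.08, adjusted p = 0.108). When all probe sets were tested on their own, the other SLC2A3 probe sets passed as higher at 48 h, by 0.31 and 0.27. The SLC2A1 values above come from the brighter of its 2 probe sets. With the mean of all probe sets, SLC2A1 no longer rose more than SLC2A3 at 12 h, and the gap between them at 48 h was smaller. The size of the SLC2A1 rise therefore depends on the probe set used.

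Hexokinases trap glucose in the cell as glucose 6-phosphate. HK2, the inducible form, read 9.92, 9.94 and 10.20 in CdCl cells at 12 h and 7.64, 7.75 and 7.73 in control cells. No CdCl array came near a control array, and the rise was 2.31 ± 0.08 (4.97-fold, adjusted p = 1.43e-09). At 48 h the readings were 8.44, 8.51 and 8.52 in CdCl cells and 8.29, 8.20 and 8.23 in control cells. This small difference of 0.25 ± 0.08 passed the test (adjusted p = 0.0177), and it no longer did without CdCl 48 h replicate 3 (adjusted p = 0.0513) or control 48 h replicate 2 (adjusted p = 0.0542). HK1, the housekeeping form, read 11.13, 11.13 and 11.12 in CdCl cells at 12 h and 10.33, 10.66 and 10.67 in control cells, a rise of 0.58 ± 0.11 (adjusted p = 0.000735). The HK1 groups overlapped at 48 h (0.16 ± 0.11, adjusted p = 0.227).

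The other HK2 probe sets did not follow the chosen one, and their signal lay near 4. The first of these read 3.37, 3.87 and 3.87 in CdCl cells at 12 h and 4.26, 4.28 and 4.13 in control cells. Its change was -0.52 ± 0.21 at 12 h, which did not pass the test over all probe sets (adjusted p = 0.0555), and -0.59 ± 0.21 at 48 h, which did (adjusted p = 0.0351). The second changed by -0.30 ± 0.12 at 12 h (adjusted p = 0.0542) and 0.05 ± 0.12 at 48 h (adjusted p = 0.767). The HK2 result therefore rests on a single bright probe set.

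**Figure D3:**
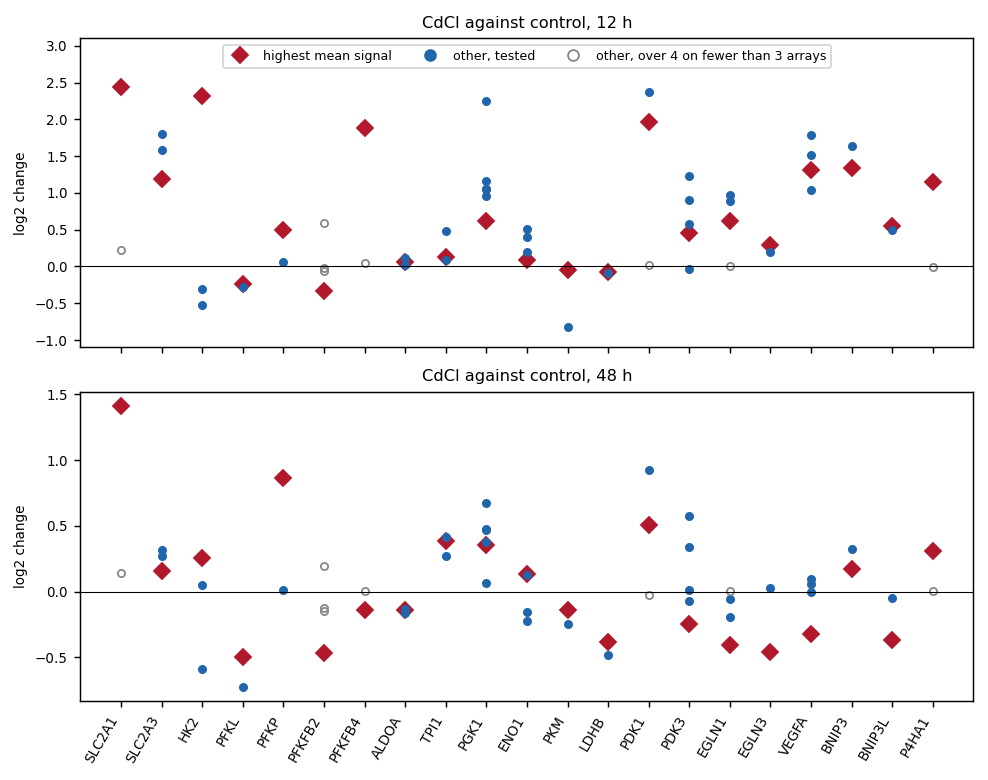
Log2 change (CdCl minus control, y axis) of each probe set annotated to 1 member alone, for genes with more than 1 probe set, at 12 h (top) and 48 h (bottom). Red diamonds mark the probe set with the highest mean signal, blue points other tested probe sets and open points those above 4 on fewer than 3 arrays; for HK2 the diamond stands at 2.31 and the others at -0.30 and -0.52 at 12 h.

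Phosphofructokinase carries out the committed step of glycolysis, and of its 3 subunit genes PFKP and PFKM went opposite ways. PFKP, the platelet-type subunit, read 10.73, 10.70 and 10.65 in CdCl cells at 12 h and 10.02, 10.38 and 10.18 in control cells (0.50 ± 0.09, adjusted p = 0.000698). Its 48 h readings were 10.44, 10.52 and 10.44 in CdCl cells and 9.49, 9.59 and 9.73 in control cells (0.86 ± 0.09, 1.82-fold, adjusted p = 1.04e-05). PFKP was thus higher at both times, without overlap. PFKM, the muscle-type subunit, read 8.83, 8.94 and 8.85 in CdCl cells at 12 h and 9.33, 9.43 and 9.30 in control cells (-0.48 ± 0.07, adjusted p = 8.66e-05). Its readings at 48 h were 8.98, 8.95 and 8.87 in CdCl cells and 9.52, 9.49 and 9.60 in control cells (-0.61 ± 0.07, adjusted p = 1.23e-05). PFKM fell at both times, again without overlap.

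PFKL, the liver-type subunit, did not pass at 12 h (-0.24 ± 0.17, adjusted p = 0.264). At 48 h it read 7.30, 6.41 and 6.81 in CdCl cells and 7.30, 7.29 and 7.41 in control cells, a change of -0.50 ± 0.17 (adjusted p = 0.0288). These groups overlapped, since CdCl replicate 1 read as high as the controls, and without CdCl 48 h replicate 2 the change was -0.28 (adjusted p = 0.103). The call was also lost without CdCl 48 h replicate 3 and without any of the 3 control 48 h arrays (adjusted p = 0.0546 to 0.0785). Its other probe set passed as lower at both times (-0.28 and -0.72). GPI, which converts glucose 6-phosphate to fructose 6-phosphate, did not pass at either time (-0.17 ± 0.09 at 12 h and 0.12 ± 0.09 at 48 h).

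PFKFB enzymes set the level of fructose 2,6-bisphosphate, the strongest activator of phosphofructokinase. PFKFB4 read 5.5, 5.51 and 5.87 in CdCl cells at 12 h and 3.90, 3.61 and 3.72 in control cells. All 3 control arrays lay under 4, so the rise was at least 3.09-fold. The 3 CdCl 12 h arrays were the only ones of the 12 above 4, and PFKFB4 passed the filter through them alone, so its place among the 20 rises is a description and no p is given. Every array of either group lay under 4 at 48 h, and no fold is given. PFKFB3, the form with high kinase activity, read 10.24, 10.35 and 10.34 in CdCl cells at 12 h and 9.23, 9.29 and 9.34 in control cells (1.02 ± 0.12, 2.03-fold, adjusted p = 2.51e-05). At 48 h it read 8.52, 8.08 and 8.60 in CdCl cells and 9.16, 9.01 and 8.94 in control cells (-0.64 ± 0.12, 1.56-fold lower, adjusted p = 0.000745). PFKFB3 therefore passed in opposite directions, with all CdCl arrays above the controls at 12 h and all below them at 48 h.

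PFKFB2, the form abundant in heart, read 5.18, 4.80 and 5.06 in CdCl cells at 12 h and 5.25, 5.55 and 5.23 in control cells. That fall of -0.33 ± 0.11 (adjusted p = 0.0266) was lost after centring (-0.18, adjusted p = 0.249), without CdCl 12 h replicate 2 (-0.22, adjusted p = 0.114) and without control 12 h replicate 2 (-0.23, adjusted p = 0.115). Readings at 48 h were 5.86, 5.97 and 5.83 in CdCl cells and 6.40, 6.43 and 6.24 in control cells (-0.47 ± 0.11, adjusted p = 0.0042). The groups did not overlap at either time.

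Of the 7 tested genes of the later steps, from aldolase to pyruvate kinase, 3 rose at 12 h and none fell, with a median change of 0.14. Over all genes 16.7% rose and 39.7% fell, with a median of -0.16. All 3 CdCl arrays lay above the controls for 5 of the 7, against 19.8% of all genes. PGK1, the first enzyme of the pathway to yield ATP, read 14.01, 13.98 and 14.09 in CdCl cells and 13.46, 13.41 and 13.34 in control cells (0.62 ± 0.07, 1.54-fold, adjusted p = 1.15e-05). Its 5 other probe sets, all of lower signal, rose by 0.96 to 2.25. PGAM1, a phosphoglycerate mutase, read 13.63, 13.51 and 13.58 in CdCl cells and 13.19, 13.27 and 13.26 in control cells (0.34 ± 0.06, adjusted p = 0.000954). ENO2, the neuronal enolase, read 8.40, 8.50 and 8.26 in CdCl cells and 7.68, 8.07 and 8.00 in control cells (0.47 ± 0.12, adjusted p = 0.00565). None of these 3 genes had overlapping groups.

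The remaining 4 did not pass at 12 h with their chosen probe sets: ALDOA (an aldolase) had a change of 0.06 ± 0.08, TPI1 (triosephosphate isomerase) 0.14 ± 0.08, ENO1 (the ubiquitous enolase) 0.09 ± 0.06 and PKM (pyruvate kinase) -0.05 ± 0.11. Other probe sets differed in call at 12 h: 1 for TPI1 was higher (0.48), 1 for ENO1 was higher (0.51) and 1 for PKM, at a signal near 5, was lower (-0.82). At 48 h PGAM1 was higher, with 12.92, 12.96 and 12.81 in CdCl cells and 12.33, 12.39 and 12.41 in control cells (0.52 ± 0.06, adjusted p = 3.6e-05). TPI1 read 12.35, 12.45 and 12.21 in CdCl cells and 11.90, 12.01 and 11.94 in control cells at that time (0.38 ± 0.08, adjusted p = 0.00114). PGK1 was higher at 48 h as well (0.35 ± 0.07, adjusted p = 0.000723), and ENO2 did not pass (0.29 ± 0.12, adjusted p = 0.0632). GAPDH, which stands between these steps and is not on the list, changed by 0.03 ± 0.06 at 12 h (adjusted p = 0.712).

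Lactate dehydrogenase reduces pyruvate to lactate. LDHA, the form that HIF1A is known to induce, read 14.64, 14.64 and 14.63 in CdCl cells at 12 h and 14.49, 14.54 and 14.39 in control cells. The groups were separate, but the rise was only 0.17 ± 0.07 (1.12-fold, adjusted p = 0.0474). It no longer passed when any 1 of the 3 CdCl 12 h arrays was left out, nor without replicate 1 or 3 of the 12 h controls, replicate 1 or 3 of the 48 h controls, or replicate 1 of the CdCl 48 h arrays (0.13 to 0.18, adjusted p up to 0.157). At 48 h LDHA read 13.48, 13.48 and 13.38 in CdCl cells and 13.75, 13.89 and 13.84 in control cells, a fall of -0.38 ± 0.07 (adjusted p = 0.000458). LDHB, the heart-type form, did not pass at 12 h (-0.08 ± 0.06, adjusted p = 0.265). Its readings at 48 h were 14.43, 14.44 and 14.39 in CdCl cells and 14.79, 14.77 and 14.85 in control cells (-0.38 ± 0.06, adjusted p = 0.000144). The highest reading on any array was between 15.6 and 15.8, and whether signals this near the top understate a change was not tested.

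Pyruvate dehydrogenase kinases switch off the entry of pyruvate into the citric acid cycle. PDK1 read 9.81, 9.79 and 9.69 in CdCl cells at 12 h and 7.77, 7.80 and 7.82 in control cells, a rise of 1.97 ± 0.12 (3.91-fold, adjusted p = 1.42e-07). At 48 h the readings were 8.32, 8.07 and 8.45 in CdCl cells and 7.82, 7.97 and 7.52 in control cells (0.51 ± 0.12, 1.42-fold, adjusted p = 0.00324). The 48 h groups were separated by a narrow gap. PDK3 read 8.98, 9.16 and 8.73 in CdCl cells at 12 h and 8.42, 8.46 and 8.61 in control cells (0.46 ± 0.10, adjusted p = 0.00255). At 48 h its chosen probe set read 8.57, 8.58 and 8.51 in CdCl cells and 8.85, 8.70 and 8.85 in control cells (-0.25 ± 0.10, adjusted p = 0.0607). Probe sets of PDK3 went different ways at 48 h, since 2 others passed as higher (0.58 and 0.34).

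**Figure D4:**
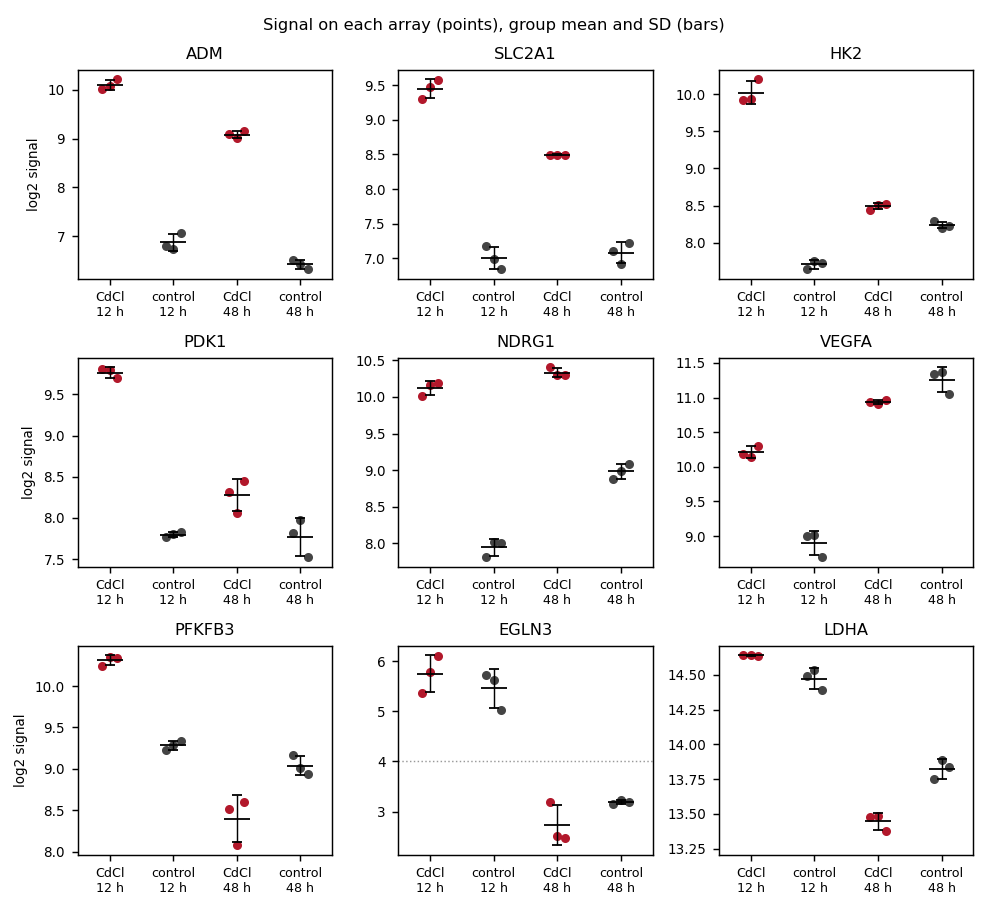
Log2 signal (y axis, scaled separately in each panel) of 9 genes on each of the 12 arrays, with CdCl arrays in red, control arrays in grey and bars for the group mean ± SD (n = 3). HK2 and PDK1 stand far above their controls at 12 h and slightly above at 48 h, ADM, SLC2A1 and NDRG1 stand clearly above at both times, VEGFA and PFKFB3 lie above at 12 h and below at 48 h; the dotted line in the EGLN3 panel marks 4.

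HIF1A itself did not pass the test at either time. Its transcript read 14.09, 14.08 and 14.10 in CdCl cells at 12 h and 14.14, 14.17 and 14.14 in control cells (-0.06 ± 0.06, adjusted p = 0.435). Later, at 48 h, it read 14.01, 13.94 and 13.94 in CdCl cells and 14.05, 14.11 and 13.98 in control cells (-0.08 ± 0.06, adjusted p = 0.245). The 12 h groups were separate by a narrow gap and the 48 h groups overlapped. The protein, on which oxygen sensing acts, was not measured. EGLN1, the main oxygen-dependent hydroxylase of HIF1A, read 11.29, 11.31 and 11.41 in CdCl cells at 12 h and 10.69, 10.75 and 10.73 in control cells (0.61 ± 0.07, 1.53-fold, adjusted p = 2.36e-05). At 48 h it read 10.08, 9.87 and 9.93 in CdCl cells and 10.35, 10.42 and 10.33 in control cells (-0.41 ± 0.07, adjusted p = 0.000456). EGLN1 thus passed in opposite directions, although 2 other EGLN1 probe sets did not pass at 48 h (-0.19 and -0.06).

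EGLN3, a hydroxylase that hypoxia strongly induces in many cells, read 5.38, 5.78 and 6.11 in CdCl cells at 12 h and 5.74, 5.62 and 5.02 in control cells. The groups overlapped and the test was not passed (0.30 ± 0.23, adjusted p = 0.303). At 48 h all 6 arrays lay under 4.

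Hypoxia targets outside metabolism all rose at 12 h, 6 of 6, where 16.7% of all genes rose. ADM, which encodes the vasodilator peptide adrenomedullin, had the largest rise of the list, with 10.02, 10.07 and 10.21 in CdCl cells and 6.81, 6.74 and 7.07 in control cells (3.23 ± 0.10, 9.41-fold, adjusted p = 4.38e-10). After 48 h ADM read 9.09, 9.00 and 9.15 in CdCl cells and 6.51, 6.42 and 6.32 in control cells (2.66 ± 0.10, 6.33-fold, adjusted p = 2.3e-09). NDRG1, a stress-responsive gene induced by hypoxia and by iron chelation, read 10.01, 10.16 and 10.19 in CdCl cells at 12 h and 7.81, 8.02 and 8.00 in control cells (2.17 ± 0.08, 4.51-fold, adjusted p = 3.16e-09). ADM and NDRG1 were far above their controls at both times. The 48 h readings of NDRG1 were 10.40, 10.29 and 10.30 in CdCl cells and 8.88, 8.99 and 9.08 in control cells (1.35 ± 0.08, 2.54-fold, adjusted p = 1.33e-07).

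VEGFA, the vascular growth factor, read 10.19, 10.14 and 10.30 in CdCl cells at 12 h and 9.00, 9.01 and 8.69 in control cells (1.31 ± 0.11, 2.48-fold, adjusted p = 1.57e-06). At 48 h it read 10.93, 10.90 and 10.97 in CdCl cells and 11.35, 11.37 and 11.05 in control cells (-0.32 ± 0.11, adjusted p = 0.022). The 48 h signal was thus higher than the 12 h signal in either condition, with the controls above the CdCl arrays. That fall was not seen with the other 3 VEGFA probe sets (-0.002 to 0.10), and it no longer passed when replicate 1 or 2 of either 48 h group was left out (adjusted p = 0.0508 to 0.0836). At 12 h the other VEGFA probe sets rose by 1.04 to 1.79.

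BNIP3 and BNIP3L encode mitochondrial proteins that mark mitochondria for autophagy. BNIP3 read 12.60, 12.63 and 12.64 in CdCl cells at 12 h and 11.37, 11.31 and 11.18 in control cells (1.34 ± 0.08, 2.53-fold, adjusted p = 2.3e-07). Its groups overlapped at 48 h, with 11.74, 11.45 and 11.73 in CdCl cells and 11.44, 11.51 and 11.46 in control cells (0.17 ± 0.08, adjusted p = 0.113); without CdCl 48 h replicate 2 the change was 0.26 and passed (adjusted p = 0.00956). BNIP3L rose by 0.56 ± 0.09 at 12 h (adjusted p = 0.000235) and was lower at 48 h (-0.36 ± 0.09, adjusted p = 0.00407), with 11.39, 11.08 and 11.41 in CdCl cells and 11.63, 11.75 and 11.59 in control cells. Its other probe set did not pass at 48 h (-0.05). P4HA1, a collagen prolyl hydroxylase subunit, read 11.07, 11.23 and 11.16 in CdCl cells at 12 h and 9.90, 9.92 and 10.20 in control cells (1.15 ± 0.09, 2.22-fold, adjusted p = 1.72e-06). At 48 h it was higher by 0.31 ± 0.09 (adjusted p = 0.0148), a call lost without replicate 2 of the CdCl 48 h arrays and without replicate 1 or 2 of the 48 h controls (adjusted p = 0.0501 to 0.0553).

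At 48 h, 10 of the 31 genes were higher in CdCl cells, 9 were lower and 12 did not pass, where 26.5% of all genes were higher and 28.0% lower. The shares of the list were thus near those of all genes, and its median change was 0.12, against -0.02 over all genes. All 3 CdCl arrays lay above the controls for 12 genes (29.1% of all genes) and below them for 9 (30.9%). Of the 20 genes that rose at 12 h, 9 were also higher at 48 h, 5 were lower (PFKFB3, LDHA, EGLN1, VEGFA and BNIP3L) and 6 did not pass. Those 9 made up 9 of the 10 genes higher at 48 h, TPI1 being the other. Among all genes, 1783 rose at 12 h, of which 1217 were also higher at 48 h, 123 were lower and 443 did not pass. PFKM and PFKFB2 were lower at both times. At 48 h spike-ins averaged 5.90 ± 0.44 on the CdCl arrays and 5.74 ± 0.09 on the control arrays (exact p = 0.6).

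The change of the CdCl effect between the times was tested directly, as the 48 h effect minus the 12 h effect. Of the 31 genes, 18 passed the test with a lower effect at 48 h, 1 passed with a higher effect and 12 did not pass, where 13.0% of all genes passed as lower and 27.0% as higher. The median was -0.54 for the list and 0.13 over all genes. After centring of the arrays, all genes split into 1989 lower and 1907 higher, in place of 1394 and 2888. Of the 31 genes HK2 had the most negative difference, -2.06 ± 0.11 (adjusted p = 5.25e-07). PFKFB4 is among the 18, but 9 of its 12 arrays lay under 4, so the size of its difference was not read. PFKFB3 had -1.66 ± 0.17 and VEGFA -1.63 ± 0.15. ADM, though still strongly raised, had -0.57 ± 0.13 (adjusted p = 0.00607). For the later enzymes the difference was small: 6 of 7 did not pass, and PGK1 had -0.27 ± 0.09 (adjusted p = 0.0361).

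Pairs of related genes were compared within the arrays. Over 10 pairs at 2 times, the difference of the log2 signals was compared between 3 CdCl and 3 control arrays with an exact two-sided permutation test, whose smallest p is 0.1 (0.143 adjusted over the 20 comparisons), so no pair could pass a threshold of 0.05. At 12 h, HK2 rose by 1.74 more than HK1, PDK1 by 1.51 more than PDK3, and PFKP and PFKM moved apart by 0.98 (exact p = 0.1 each). SLC2A1 rose more than SLC2A3, by a difference of -1.25 for SLC2A3 minus SLC2A1 at 12 h and -1.26 at 48 h (exact p = 0.1 each). BNIP3 minus BNIP3L was 0.78, PFKP minus PFKL 0.74, ENO2 minus ENO1 0.38 and LDHA minus LDHB 0.24 at 12 h, all at the smallest p. The pair of PFKFB4 and PFKFB3 was at the smallest p too, but its size was not read, since PFKFB4 lay under 4 in the controls. EGLN3 minus EGLN1 was -0.32 (exact p = 0.4). At 48 h PFKP and PFKM stood 1.47 apart and PFKP and PFKL 1.36 apart (exact p = 0.1 each), whereas HK2 minus HK1 was 0.09 (exact p = 0.6) and LDHA minus LDHB 0.01 (exact p = 0.9). With the mean of all probe sets of a gene in place of the brightest, HK2 minus HK1 was -0.08 and SLC2A3 minus SLC2A1 0.19 at 12 h, so those 2 directions depend on the probe sets used.

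Control cells changed over the same interval. In control cells at 48 h against control cells at 12 h, 6 of the 31 genes were higher and 15 lower, where 23.4% of all genes were higher and 33.5% lower. PFKFB4 is counted among the 15, although both groups lay under 4 and its change cannot be read. The arrays of the 2 times did not overlap for 9 genes higher at 48 h (27.4% of all genes) and 18 lower (37.1%). The same control arrays enter the CdCl comparisons. VEGFA was higher at 48 h, with 11.35, 11.37 and 11.05 at 48 h and 9.00, 9.01 and 8.69 at 12 h (2.36 ± 0.11, 5.12-fold, adjusted p = 9.6e-09). EGLN3 read 3.14, 3.22 and 3.20 at 48 h and 5.74, 5.62 and 5.02 at 12 h, at least 2.75-fold lower at 48 h. EGLN3 passed the filter only through the 12 h arrays, so its place among the 15 is a description and no p is given. All 7 tested genes of the later steps were lower at 48 h, by changes of -0.38 for ALDOA to -0.86 for PGAM1, and none of their groups overlapped. HK1 changed by -1.17 ± 0.11 and LDHA by -0.65 ± 0.07, whereas NDRG1 (1.04 ± 0.08), PFKFB2 (1.01 ± 0.11) and HK2 (0.53 ± 0.08) were higher. For SLC2A1 (0.08 ± 0.10) and PDK1 (-0.03 ± 0.12) the controls of the 2 times overlapped.

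Other genes of the same pathways came from lists that do not share members with the 34 and were also chosen with earlier results known. Their counts are to be read against the 16.7% of all genes that rose and 39.7% that fell at 12 h. At 48 h, 26.5% of all genes were higher and 28.0% were lower. Among 28 tested further targets known for HIF1A, 23 rose and 1 fell at 12 h, with a median of 0.74, and 14 were higher and 6 lower at 48 h, with a median of 0.34. MAFF, a small MAF transcription factor, rose by 3.64 ± 0.08 and STC2, the glycoprotein stanniocalcin 2, by 3.58 ± 0.15 at 12 h. Both genes are also known to respond to other stresses. The 12 h control arrays of STC2 read 4.15, 3.79 and 4.13, close to the low limit of 4, so the size of its rise is uncertain. DDIT4, the 1 target that fell at 12 h, averaged 11.99 in CdCl cells and 12.20 in control cells. At 48 h DDIT4 averaged 11.90 in CdCl cells and 12.68 in control cells, and CA12 was lower by -1.07 ± 0.16. Among 16 further genes of glycolysis and glucose handling, 2 rose and 6 fell at 12 h and 6 were higher and 2 lower at 48 h; SLC37A4, the glucose 6-phosphate transporter of the endoplasmic reticulum, fell at both times (-1.36 ± 0.14 and -1.62 ± 0.14).

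Set against the same shares of all genes, 1 of 10 genes of pyruvate entry into mitochondria rose and 6 fell at 12 h, and 3 were higher and 5 lower at 48 h. PDK4, a kinase of the same family as PDK1, was lower at 12 h (-0.32 ± 0.12, adjusted p = 0.0384) and at 48 h (-2.48 ± 0.12, adjusted p = 2e-08). With 1 array left out, the adjusted p of PDK4 at 12 h was 0.0208 to 0.154. PDP1, the phosphatase that opposes these kinases, rose by 0.66 ± 0.11 at 12 h and by 1.70 ± 0.11 at 48 h. Of 14 regulators of the HIF pathway, 2 rose and 6 fell at 12 h, and 4 were higher and 4 lower at 48 h, near the shares of all genes. EPAS1, the paralogue of HIF1A known as HIF-2 alpha, rose by 1.00 ± 0.08 at 12 h (adjusted p = 1.96e-06). At 48 h EPAS1 averaged 12.22 in CdCl cells and 11.79 in control cells. CITED2, which competes with HIF1A for its coactivator, was lower at 12 h (-0.35 ± 0.10, adjusted p = 0.0101) and at 48 h (-0.89 ± 0.10, adjusted p = 1.58e-05). Of 9 receptors of ADM and VEGFA and partners of the lactate transporters, 1 rose and 2 fell at 12 h, and 1 was higher and 6 were lower at 48 h. CALCRL, the receptor for adrenomedullin, is counted among those lower at both times, but both groups lay under 4 at 12 h, where its change cannot be read. At 48 h all 3 CdCl arrays lay under 4, at least 1.41-fold below the 3 control arrays, which were the only ones above 4 and through which alone it passed the filter.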

How the data were processed

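The authors deposited a log2 signal for every probe set on 12 arrays, made with GCRMA per the submitters' processing notes, which name no version. GCRMA corrects background by probe sequence and normalises arrays together, so a shift of all transcripts cannot be read from them. They were used as deposited. Gene symbols came from the platform's annotation: 41091 probe sets had 1 symbol and 1801 several. For each of 19775 genes the probe set of highest mean signal was taken, and genes above 4 on at least 3 arrays were tested. One limma fit (limma 3.58.1, R 4.3.3; lmFit, eBayes) of 4 group means gave all comparisons, two-sided, with Benjamini-Hochberg adjustment over 10683 genes; it was tested on simulated data. The number of arrays limits the precision, and detection calls were not used here. The 34 genes and the other lists were chosen with earlier results of these data known. All 34 genes are named. From the other lists, genes come from the up to 4 with the largest change past the threshold in each CdCl comparison. GAPDH and DDIT4 were added. Of these genes the text gives only some of biological note, a choice made after the values were seen. Alternatives covered normalization, filter, probe sets, prior, arrays left out and a replicate block.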

Additional observations from a re-analysis of the deposited data

Results flagged for a closer look

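The effect of CdCl differed between 48 h and 12 h for 19 of the 31 tested genes, by the interaction term of the limma fit (48 h effect minus 12 h effect, adjusted p under 0.05 over all genes tested). Over all genes tested, 13.0% passed with a lower effect at 48 h and 27.0% with a higher one. Among enzymes and transporters the differences were -2.06 for HK2, -1.66 for PFKFB3, -1.46 for PDK1, -1.04 for SLC2A3, -1.03 for SLC2A1, -0.70 for PDK3, -0.54 for LDHA, -0.42 for HK1, -0.31 for LDHB and -0.27 for PGK1. The fitted value for PFKFB4 was -2.02, but 9 of its 12 arrays lay under 4 and it was tested only through the CdCl 12 h arrays, so this size is not a measured difference. Among hypoxia targets and the sensor EGLN1 the differences were -1.63 for VEGFA, -1.17 for BNIP3, -1.02 for EGLN1, -0.92 for BNIP3L, -0.84 for P4HA1, -0.83 for NDRG1 and -0.57 for ADM. PFKP, the platelet-type phosphofructokinase subunit, was the only 1 of the 31 that passed the test with a larger effect at 48 h, by 0.36 (adjusted p = 0.0429). That call was lost after centring (0.24, adjusted p = 0.215), and leaving out 1 array gave 0 to 2 genes that passed with a larger effect.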

How the results depend on the processing

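Of the members called, 20 of 22 at 12 h and 13 of 19 at 48 h kept direction and call under every alternative in which they were tested. The exceptions were LDHA and PFKFB2 at 12 h and EGLN1, HK2, P4HA1, PFKFB2, PFKL and VEGFA at 48 h. PFKFB4 is counted among the 20, but it was not tested with the filter raised to 6 or when any 1 CdCl 12 h array was left out. Lower calls at 12 h numbered 1 in place of 2 with centring, quantile normalization, no filter, only the compared groups or the replicate block, and 1 to 2 with an array left out. Higher interaction calls numbered 0 in place of 1 with centring, no filter, the mean of probe sets, every probe set or the replicate block, 3 with a trended robust prior, and 0 to 2 with an array left out. The mean of a gene's probe sets, which takes in dim ones, turned PFKFB2 at 12 h (0.045), HK2 at 48 h (-0.10), ENO1 in the interaction (-0.33), PDK1 in controls over time (0.36) and, at 12 h, HK2 minus HK1 (-0.080), PFKFB4 minus PFKFB3 (-0.057, with PFKFB4 under 4 in the controls) and SLC2A3 minus SLC2A1 (0.19). It moved SLC2A3 minus SLC2A1 at 48 h to -0.53, HK2 minus HK1 at 48 h to -0.26, PDK1 minus PDK3 to 0.83 at 12 h and 0.35 at 48 h, BNIP3 minus BNIP3L to 0.96 and 0.45, and PFKP minus PFKM to 0.76 and 1.04. Quantile normalization moved LDHA minus LDHB at 48 h to -0.10. The cause was not tested. Same-numbered CdCl and control arrays did not deviate together (r = -0.06, -0.003 and -0.03 at 12 h, and -0.03, -0.34 and -0.23 at 48 h), so the numbers give no pairing. With the replicate block, 19 genes were higher and 1 lower at 12 h, 10 higher and 8 lower at 48 h, and 15 had a lower effect at 48 h than at 12 h; for the controls over time the block could not be fitted and was not run. Of the interaction calls, HK1 and PGK1 did not pass with the block (adjusted p = 0.0995 and 0.111). Genes under 4, such as PFKFB4 and EGLN3 at 48 h, cannot be read for change at this signal.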
